A study of Mus musculus with 24 samples.

Results

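The mitochondrial respiratory chain genes are the 94 genes whose symbol on the array begins with Nduf, Uqcr, Cox4 to Cox8, Atp5 or Sdha to Sdhd, out of 18193 genes with a symbol of their own. The rule uses no measured value, other than the mean over the 24 arrays that picked 1 probe set for each gene. It was set with earlier results of these data known. The array's annotation gives 185 probe sets to these genes, and 41 of the genes have a single one. By role they are 6 core and 28 accessory subunits of complex I, 8 of its assembly factors, 4 subunits and 4 assembly factors of complex II, 8 subunits of complex III, 11 of complex IV, 17 of ATP synthase, and 8 isoforms of complex IV subunits that are known from restricted tissues.

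The respiratory chain moves electrons from NADH (complex I) and succinate (complex II) through ubiquinone, complex III and cytochrome c to oxygen at complex IV, and pumps protons that drive ATP synthase. The genes here are those of the nucleus, and mitochondrial DNA encodes the remaining subunits. Photoreceptors pack mitochondria into the inner segment and have a high demand for oxygen, while the retina also turns glucose into lactate at a high rate. Pinealocytes are related to photoreceptors and make melatonin at night. Several complex IV subunits exist in a general form and in a second form of heart and skeletal muscle, testis or lung.

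The mice were C57BL/6J of both sexes at 2 months of age, kept with 12 h of light a day. Controls carried 2 floxed NeuroD1 alleles and no Cre (NeuroD1flox/flox::Crx-cre-/-). Conditional knockouts (cKO) carried the same floxed alleles with 1 Crx-cre transgene (NeuroD1flox/flox::Crx-cre+/-), so Cre follows the Crx promoter, which works in photoreceptors and pinealocytes, and cells without Crx keep Neurod1. Pineal glands and retinas were taken at ZT6 (day, 6 h after lights on) and at ZT20 (night, under dim red light), giving 8 groups. A group had 3 arrays, each of RNA pooled from 6 glands or 6 retinas, and p-values rest on how far such pools differ.

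Signals are array intensities after quantile normalisation, which gives all 24 arrays the same distribution, and differences are on the log2(signal + 16) scale. As deposited, the median signal of pineal arrays was 107.2 to 131.1 in cKO and 130.1 to 158.9 in control, and that of retinal arrays 125.9 to 183.2 in cKO and 107.8 to 137.7 in control. Neurod1 fell to between 0.71% and 1.77% of the control mean in the pineal cKO pools of ZT6 and to between 3.97% and 9.78% in the retinal ones. At ZT20 the pools labelled cKO had 0.849%, 59.3% and 25.6% (pineal) and 4.37%, 50.3% and 45.9% (retinal) of the control mean, so pools 2 and 3 of both tissues went against the label. All 13 rod markers measured were above the array median in every retinal pool, with summed signals of 116400 to 124400 in control retinas and 41220 to 51920 in control pineal glands, and Tph1, an enzyme of serotonin synthesis, differed by -6.31 (log2, retina minus pineal). The 8 pinealocyte markers measured did not separate the tissues by their sum (46550 to 51270 in control pineal glands, 42200 to 47590 in control retinas). Skeletal muscle markers summed to 10710 in retinal control pool 2 of ZT6 and to 25220 in retinal pool 1 labelled cKO at ZT20, and to between 1424 and 2562 in the other retinal pools. In the control retinas of ZT20, with sums of 1424 to 1742, the marker Pvalb alone had 909.1 to 1178 and Ckm at most 11.45. Pool 3 of both pineal groups at ZT6 was high in the rod gene Gnat1 (3511 in control and 2195 in cKO).

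The members are bright on these arrays: 46 of the 94 lie among the brightest 5% of all genes. Shares and medians of all genes, given beside those of members below, are not matched for brightness, and its part in them was not tested. A gene was tested where its signal exceeded the array median on at least 3 arrays of a fit, which kept 89 pineal and 88 retinal members, and 90 where both tissues were fitted together. Ndufb4, Cox7b2, Cox8c and the isoform Ndufa4l2 were tested in neither tissue, with signals of 1.47 to 130.8 over all arrays. Ndufb1 was left out in the retina alone, and Cox6a2 was tested only across tissues. Pools of one group differed little for most members, with a median coefficient of variation of 3.81% to 4.74% in the pineal groups and at least 7.54% in the retinal groups.

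In the pineal gland, no respiratory chain gene passed the threshold between cKO and control. Neurod1 itself differed by -6.22 at ZT6 (adjusted p = 0.0101, limma) and by -2.97 at ZT20 (adjusted p = 0.312), so the ZT20 and averaged values hold pools that keep Neurod1 signal. The RNA quality ratios of Actb and Gapdh (3' over 5' probe sets, log2) overlapped between genotypes at ZT6 and were higher in every pool labelled cKO at ZT20 (Actb at least 1.34, against 1.07 to 1.31); their part in the values was not tested. At ZT6, 0 of 89 members passed (limma, adjusted p under 0.05 over all genes tested) while 1.84% of all genes did (0.626% higher, 1.22% lower), and 12 members had an unadjusted p under 0.05, against 20.2% of all genes. The median change was -0.03, beside 0.03 for all genes. At ZT20, 0 of 89 passed and 0% of all genes did, with 1 member at an unadjusted p under 0.05 and 7.95% of all genes. Averaged over both times, 0 of 89 passed against 1.63% of all genes (0.467% higher, 1.16% lower), with 4 members at an unadjusted p under 0.05 against 17.9%. With pool number as a replicate block 1 member passed in the averaged comparison, Cox8b at 0.38 (adjusted p = 0.0398, against 0.206 without the block). The 95% interval of the averaged change lay within 0.5 of zero for 87 of the 89 members.

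Subunits of each complex, listed by name, had small averaged differences between control and cKO glands. Ndufs1, which carries iron-sulfur clusters of complex I, had 4984, 4986 and 4776 in the control pools of ZT6 and 4988, 5320 and 5191 in the cKO pools. Averaged over both times its difference was 0.00 ± 0.04 (log2, SE, n = 6 pools each, 95% interval -0.08 to 0.07, adjusted p = 0.961 by limma). Sdha, the flavoprotein of complex II, differed by 0.03 ± 0.03 (interval -0.04 to 0.10), and Uqcrc2, a core protein of complex III, by 0.00 ± 0.04 (interval -0.08 to 0.08). Cox4i1, the general form of complex IV subunit 4, differed by -0.01 ± 0.02 (interval -0.06 to 0.04). Atp5b, the catalytic beta subunit of ATP synthase, differed by -0.01 ± 0.03 (interval -0.07 to 0.05). The averaged intervals of these 5 genes include zero, and the cKO pools of Ndufs1 at ZT6 lay just above the control pools.

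The members nearest to the threshold in the pineal gland were small subunits. At ZT6 Atp5mpl, a small membrane protein of ATP synthase, had a mean of 6293 ± 162 (SD, n = 3) in control and 5662 ± 283 in cKO, a difference of -0.15 ± 0.05 (adjusted p = 0.102, limma). Cox7c, a small subunit of complex IV, had 634.4, 745.1 and 740.7 in control and 523.2, 605.6 and 482.5 in cKO, a difference of -0.39 ± 0.12 (adjusted p = 0.106). The pools of these genes did not overlap between genotypes at ZT6, which held for 13 of 89 members and 27% of all genes, and neither passed. Averaged over both times, Cox7a2l, a factor that joins complexes III and IV, came nearest with -0.20 ± 0.06 (adjusted p = 0.0888). The 4 restricted complex IV isoforms tested (Cox4i2, Cox6b2, Cox7a1 and Cox8b) had positive differences of 0.08 to 0.38, none of which passed.

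Of the scalings tried, median centring alone changed the pineal counts, which were 0 at each time and averaged on values as deposited, with trimmed-mean scaling and with quantile normalisation within each tissue. With each array centred on its median, all pineal genes shifted up by 0.25 at ZT6 and by 0.20 averaged over both times. The counts then became 31 and 74 members higher (0 at ZT20), beside 34.8% and 42.8% of all genes. Relative to the median of all genes the members lay at -0.07 at ZT6 after quantile normalisation and at -0.05 under values as deposited, median centring and trimmed-mean scaling. Over both times together this value turned from -0.03 to 0.03 under those 3 scalings, and at ZT20 it went from 0.00 to between 0.10 and 0.11. Both other probe-set choices made calls at ZT6: with probe sets lacking a cross-hybridisation suffix preferred, 1 member was lower, namely Atp5c1, the gamma subunit of ATP synthase, at -0.59 (adjusted p = 0.027), and with the mean of all probe sets 2 were.

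In the retina, a few members differed between cKO and control, a smaller share than among all genes, which are not matched for brightness. The median absolute change at ZT6 was 0.08 for members and 0.18 for all genes. At ZT6, 3 of 88 were lower and 0 higher (3.41%), while 16.6% of all genes passed, 9.47% as higher and 7.12% as lower. An unadjusted p under 0.05 was reached by 11 members and 31% of all genes. Those 3 were Ndufaf4, Cox7c and Ndufb8. At ZT20, 1 of 88 was higher (1.14%), Cox8b, beside 10.3% of all genes, 5.66% as higher and 4.68% as lower. Here 4 members and 23.7% of all genes had an unadjusted p under 0.05. Averaged over both times, 3 were lower (Ndufaf4, Sdhaf1 and Ndufv3) and Cox8b was higher, 1.14% higher and 3.41% lower among members against 13.5% and 11.8% among all genes (25.3% in either direction). An unadjusted p under 0.05 was reached by 10 members and 37.8% of all genes. In pooled tissue, fewer cells of a type and less RNA per cell cannot be told apart.

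**Figure D1:**
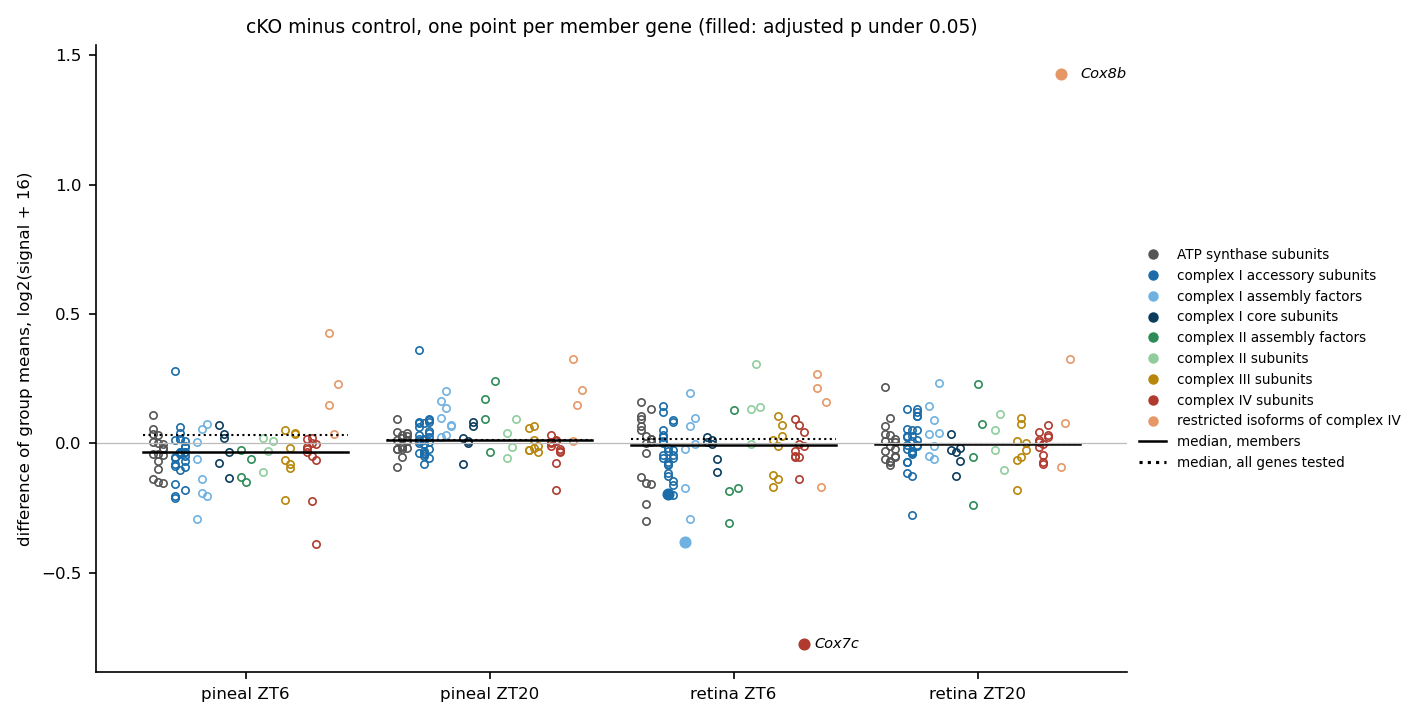
Difference between cKO and control for each member tested (log2 scale), by tissue and time, with the members coloured by role and filled where the adjusted p is under 0.05. The filled points are Cox7c, Ndufaf4 and Ndufb8 in the retina at ZT6 and Cox8b in the retina at ZT20, no pineal point is filled, and the member medians lie between -0.03 and 0.01.

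Ndufaf4 encodes an assembly factor of complex I. Its signal at ZT6 was 2645, 2612 and 2467 in the control retinas and 1943, 1981 and 1990 in the cKO retinas. Every cKO pool lay below every control pool, with a difference of -0.38 ± 0.07 (adjusted p = 0.00405, limma). In this comparison the pools of 7 of 88 members and of 33% of all genes did not overlap. At ZT20 the control pools of Ndufaf4 had 2229, 2219 and 2273 and the pools labelled cKO had 2060, 2295 and 2150, which overlap. A second probe set of Ndufaf4 gave -0.24 at ZT6 and 0.03 at ZT20. On values as deposited the difference at ZT6 was -0.10 (adjusted p = 0.601).

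Cox7c had 893.2, 1064 and 715.9 in the control retinas of ZT6 and 444.9, 542.8 and 540.7 in the cKO retinas. The groups did not overlap, and the difference was -0.78 ± 0.17 (adjusted p = 0.00888, limma). At ZT20 controls had 720.7, 727.7 and 559.5 and the pools labelled cKO 556.3, 803.1 and 765.1, so the groups overlapped. The difference between these effects was 0.85 ± 0.25 with an adjusted p of 0.514, so a change between day and night was not shown. The probe set used may bind other transcripts by its design suffix, and the gene's other set gave -0.50 at ZT6 and did not pass. Ndufb8, an accessory subunit in the membrane arm of complex I, fell by 0.20 at ZT6, from 5707 ± 320 (SD, n = 3) to 4979 ± 113 (adjusted p = 0.0421). Its call was lost in 14 of the 25 alternatives tried.

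Cox8b, the heart and muscle form of complex IV subunit 8, rose in the retinas labelled cKO at ZT20. Controls had 172.3, 98.25 and 94.19 and the cKO pools 469.7, 261.4 and 327, with no overlap, as for 27.2% of all genes. The difference was 1.43 ± 0.30 (adjusted p = 0.0085, limma). At ZT6 the control pools had 133.2, 239.7 and 158.8 and the cKO pools 157.1, 168.3 and 310.5, which overlap (adjusted p = 0.674). Averaged over both times it was higher by 0.82 ± 0.21 (adjusted p = 0.0126). Its general counterpart Cox8a had 2532, 2465 and 2529 in control and 2590, 2351 and 2630 in the pools labelled cKO at ZT20.

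The highest Cox8b value belongs to the retinal pool with the most skeletal muscle RNA. In that pool (pool 1 labelled cKO at ZT20) Cox6a2, the muscle form of subunit 6a, had 738.8, against 69.55 and 71.66 in pools 2 and 3. The muscle markers Acta1 and Mylpf had 2082 and 5381 there. In retinal control pool 2 of ZT6, which also held muscle transcripts, Cox6a2 had 275.9 and Cox8b 239.7, the highest of their group. Of the 12 muscle markers, 2 were above the array median in all pools of that group, as were 2 in each control group of the retina. Without pool 1, Cox8b differed by 1.21 with an adjusted p of 0.0563, which misses the threshold, and by 0.71 averaged over both times (adjusted p = 0.0388). Without both pools with muscle transcripts it differed by 1.21 at ZT20 (adjusted p = 0.0483) and by 0.82 averaged over both times (adjusted p = 0.0269). With the pools that keep Neurod1 left out, the cKO group at ZT20 is that pool alone, and the difference was 1.86, a value of 1 pool.

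**Figure D2:**
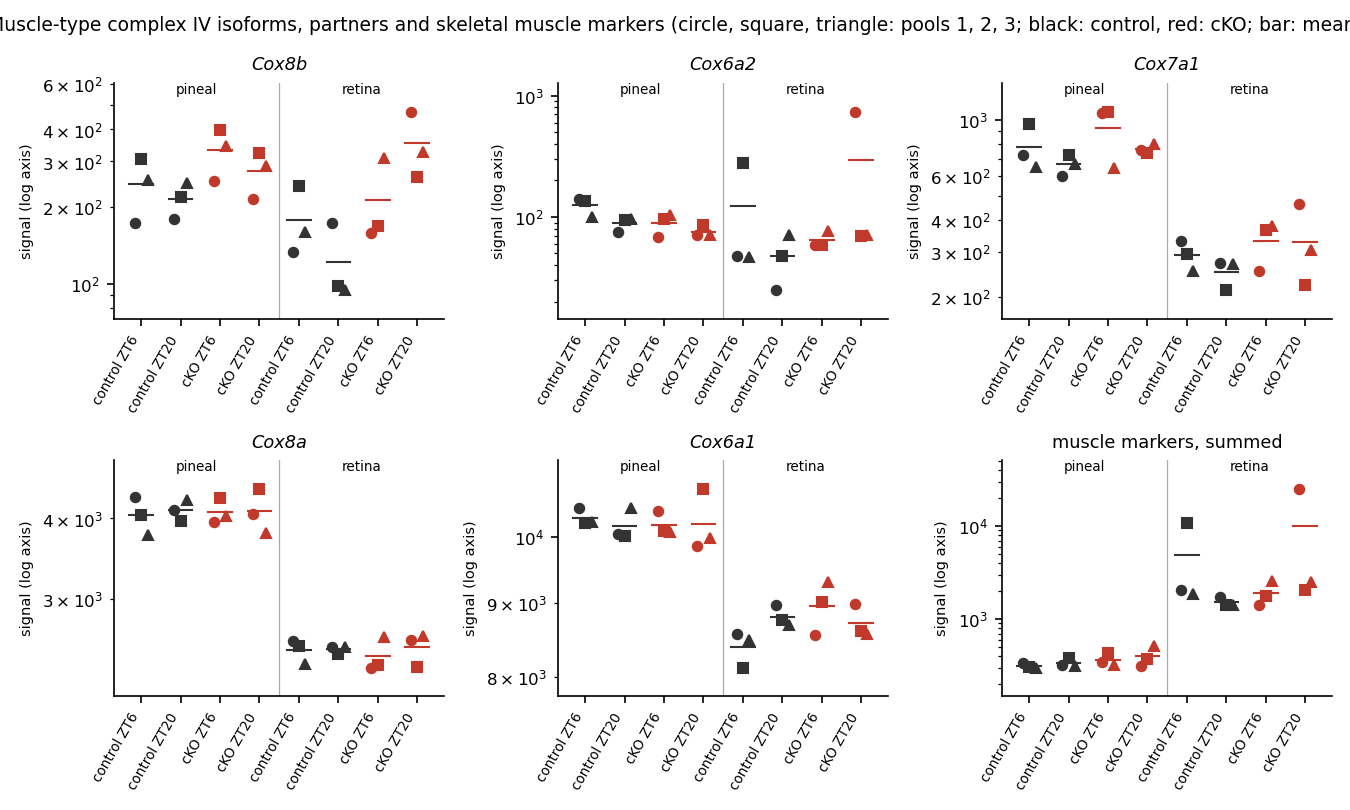
Normalised signal (log axis, arbitrary units) of Cox8b, Cox6a2 and Cox7a1, the general forms Cox8a and Cox6a1, and the summed signal of 12 skeletal muscle markers in each pool of the 8 groups. Retinal pool 1 labelled cKO at ZT20 has the highest muscle sum (25220), the highest Cox6a2 (738.8) and the highest Cox8b (469.7), and the remaining Cox8b values of its group (261.4 and 327) lie above the controls of that time (94.19 to 172.3).

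Among the averaged retinal calls, Sdhaf1, which helps to insert iron-sulfur clusters into Sdhb, fell by 0.27 from 1121 ± 182 to 918.6 ± 74.3 (SD, n = 6 pools each, adjusted p = 0.0351, limma). Ndufv3, a small subunit of the NADH-oxidising module of complex I, fell by 0.13 (adjusted p = 0.0327). The call of Sdhaf1 was lost in 12 of 26 alternatives and that of Ndufv3 in 15, among them the replicate block (adjusted p = 0.0569 for Ndufv3). Their pools overlapped between genotypes. With the 2 pools with muscle transcripts left out, Cox8b was the only member still past the threshold in this comparison. Core subunits did not pass: Ndufs1 differed by 0.00 ± 0.06 (95% interval -0.13 to 0.13), Cox4i1 by 0.00 ± 0.04 (interval -0.10 to 0.09), Atp5b by -0.03 ± 0.03 (interval -0.10 to 0.03) and Sdhb, the iron-sulfur subunit of complex II, by 0.21 ± 0.11 (interval -0.04 to 0.46).

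The retinal counts changed with the scaling, and the cause was not tested. After quantile normalisation the member median at ZT6 was -0.01, which is 0.02 below that of all genes. It lay 0.14 to 0.15 below that of all genes on values as deposited, with median centring and with trimmed-mean scaling. All genes shifted by 0.29 on values as deposited, where 0 members and 23.9% of all genes passed, against 10 lower with median centring (13.3% of all genes passed) and 11 lower with trimmed-mean scaling (16.6%). Averaged over both times the counts were 3 higher and 0 lower as deposited, 1 higher and 23 lower with median centring, and 1 higher and 14 lower with trimmed-mean scaling, beside 30%, 24.8% and 25.4% of all genes. Leaving out retinal control pool 3 of ZT6 raised the count at ZT6 to 8 lower and the averaged count to 1 higher and 8 lower. Leaving out pool 2 of that group lowered the averaged count to 2, as did leaving out control pool 1 or 2 of ZT20, or cKO pool 1 or 3 of ZT6.

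Markers of other cells moved with genotype in the retina. Among all genes 9.47% were higher and 7.12% lower at ZT6, and 5.66% and 4.68% at ZT20. Of the microglia and macrophage markers 7 of 7 tested were higher at both times, with sums of 3528 to 4910 over the control pools and 10500 to 15100 over the cKO pools. Müller glia markers were higher for 7 of 9 at ZT6 and 4 of 9 at ZT20. Cone markers were lower for 5 of 8 at each time, and rod markers for 3 of 13 at ZT6 and 7 of 13 at ZT20. The Gapdh 3' over 5' ratio (log2) at ZT6 was 0.43, 0.48 and 0.52 in control retinas and 0.35, 0.26 and 0.33 in cKO retinas, without overlap, while that of Actb overlapped. The part of these markers and ratios in the member values was not tested. Beside the chain itself, none of the 28 mitochondrial ribosome genes passed in the retina at ZT6, and of the 9 mitochondrial carriers and porins Ckmt1, the mitochondrial creatine kinase, was lower by 0.38 at ZT6 and by 0.49 at ZT20.

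No member passed for a difference of the cKO effect between the tissues in the fit of both. This fit includes the ZT20 pools that keep Neurod1 signal. Of 90 members 0 passed, while 15.9% of all genes did (8.68% higher, 7.23% lower), and 5 had an unadjusted p under 0.05 against 28.5% of all genes. The members nearest to the threshold were Sdhaf1 with -0.35 ± 0.12 (adjusted p = 0.0503, limma) and Sdhaf2, which attaches the flavin to Sdha, with 0.27 ± 0.10 (adjusted p = 0.0619). The count was 3 higher on values as deposited, 66 lower with median centring and 8 lower with trimmed-mean scaling, beside 20.9%, 40.6% and 17.5% of all genes. For a difference of the cKO effect between ZT20 and ZT6, no member passed in either tissue. The counts were 0 of 89 pineal and 0 of 88 retinal members, beside 0% of all genes in both. The interval of this difference lay within 0.5 in either direction for 76 of 89 pineal and 59 of 88 retinal members. The ZT20 pools that keep Neurod1 signal are included here too, so these comparisons cannot show whether the effect differs by time. Unadjusted p-values under 0.05 numbered 10 among pineal members (9.67% of all genes) and 4 among retinal ones (8.07% of all genes).

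Between day and night, the members that passed in the pineal gland were all lower at night. Their share was near that of lower calls among all genes in control glands and below it in cKO glands. In either direction it was below that of all genes in both. In control glands 13 of 89 members were lower at ZT20 than at ZT6 and 0 were higher. This is 14.6% lower, near the 13.5% of all genes, while 12.2% of all genes were higher and 25.7% passed in either direction. An unadjusted p under 0.05 was reached by 27 members and 38.2% of all genes. The median change was -0.08 for members and -0.01 for all genes. In cKO glands 4 of 89 were lower and 0 higher (4.49%), against 9.73% of all genes lower, 8.38% higher and 18.1% in either direction, and 9 members and 32.7% of all genes had an unadjusted p under 0.05. Aanat, the night enzyme of melatonin synthesis, was higher at ZT20 by 2.98 in control and 2.76 in cKO glands.

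Ndufaf6, an assembly factor of complex I related to enzymes of phytoene and squalene synthesis, had the largest day-night change of any member in both pineal genotypes. Its signal in the control glands was 886.9, 852.4 and 746.1 at ZT6 and 317.4, 484.1 and 375 at ZT20. In the cKO glands it was 661.3, 738.1 and 748.5 at ZT6 and 339.4, 421.2 and 466.3 at ZT20. Every night pool lay below every day pool in both genotypes. Day and night pools did not overlap for 42.4% of all genes in control glands and 35% in cKO glands. The fall of Ndufaf6 was 1.07 in control (SE 0.15, adjusted p = 0.000178, limma) and 0.79 in cKO (SE 0.15, adjusted p = 0.00179), and both calls held in all 26 alternatives. The change in control lay between -1.22 and -0.93 over them, and that in cKO between -1.04 and -0.67. Ndufaf6 has only 1 probe set, so the alternatives of probe-set choice could not change its value.

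Assembly factors hold 6 of the 13 calls in control glands, beside 13.5% of all genes that were lower, and this split was not tested. Of the 8 complex I factors 3 were lower (Ndufaf6, Ndufaf3 and Ndufaf4), and the median over the 8 was -0.26. Of the 4 complex II factors 3 were lower, and the median was -0.35. Sdhaf3 had 682.1, 521.3 and 531.1 by day and 376.3, 468.9 and 416.7 by night, a difference of -0.44 ± 0.13 (adjusted p = 0.0219, limma). Sdhaf1 had 964.1, 774.2 and 737.6 by day and 564.9, 666.7 and 658.1 by night, a difference of -0.38 ± 0.11 (adjusted p = 0.0226). Sdhaf4 differed by -0.32 ± 0.05 (adjusted p = 0.000666). The call of Sdhaf3 was lost in 6 and that of Sdhaf1 in 4 of 26 alternatives. The day and night pools of these genes did not overlap, which held for 29 of 89 members and 42.4% of all genes.

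The remaining 7 calls in control glands were subunits. Sdhd, a membrane anchor of complex II, had 6052, 6235 and 6142 by day and 4302, 5709 and 5035 by night in control, and 5670, 5730 and 5680 by day and 4624, 4920 and 4819 by night in cKO. It fell by 0.30 in control (adjusted p = 0.00913, limma) and by 0.25 in cKO (adjusted p = 0.031). Cox7c fell by 0.42 in control (adjusted p = 0.0215), a call lost in 7 of 26 alternatives, and its cKO pools overlapped. Ndufs4, an accessory subunit of complex I, fell by 0.34 in control (adjusted p = 0.0161), but another of its probe sets gave 0.11, and the call was lost in 5 of 26 alternatives. Ndufb6, Ndufb9, Ndufa4 and Cox6c fell by 0.23, 0.21, 0.11 and 0.14, and the call of Ndufa4 was lost in 17 of 26 alternatives, among them each that left out a control pool and the replicate block (adjusted p = 0.0552). None of the 6 complex I core subunits, 8 complex III subunits, 17 ATP synthase subunits and 4 restricted isoforms tested passed.

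The calls shared by control and cKO glands, which have no array in common, were Ndufaf3, Ndufaf6 and Sdhd, 3 of the 13 control calls and 3 of the 4 cKO calls. Among all genes 13.5% were lower in control and 9.73% in cKO glands. The share of all genes called in both is not given here, so this overlap is not shown to be particular to the members. Ndufaf3 fell by 0.32 in each genotype. In cKO the call of Ndufaf6 held in all 26 alternatives, that of Ndufaf3 was lost in 10 and that of Sdhd in 13, among them each that left out a cKO pool. The remaining cKO call, Cox5b, a zinc-binding subunit of complex IV, fell by 0.14, and of its probe sets without a cross-hybridisation suffix one gave 0.30 and another -0.14. Scaling changed these counts: 1 member was lower in control and 2 in cKO on values as deposited, 3 and 2 with median centring, and 9 and 2 with trimmed-mean scaling. Without control pool 1 of ZT20 the control count was 5, and without pool 1 or pool 2 of control at ZT6 it was 6 and 7. With the pools that keep Neurod1 left out, 1 cKO pool remained at ZT20, assumed to vary like the other groups, and the count was 2, as it was without cKO pool 1 of ZT6, cKO pool 1 or 2 of ZT20, or control pool 2 of ZT6.

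**Figure D3:**
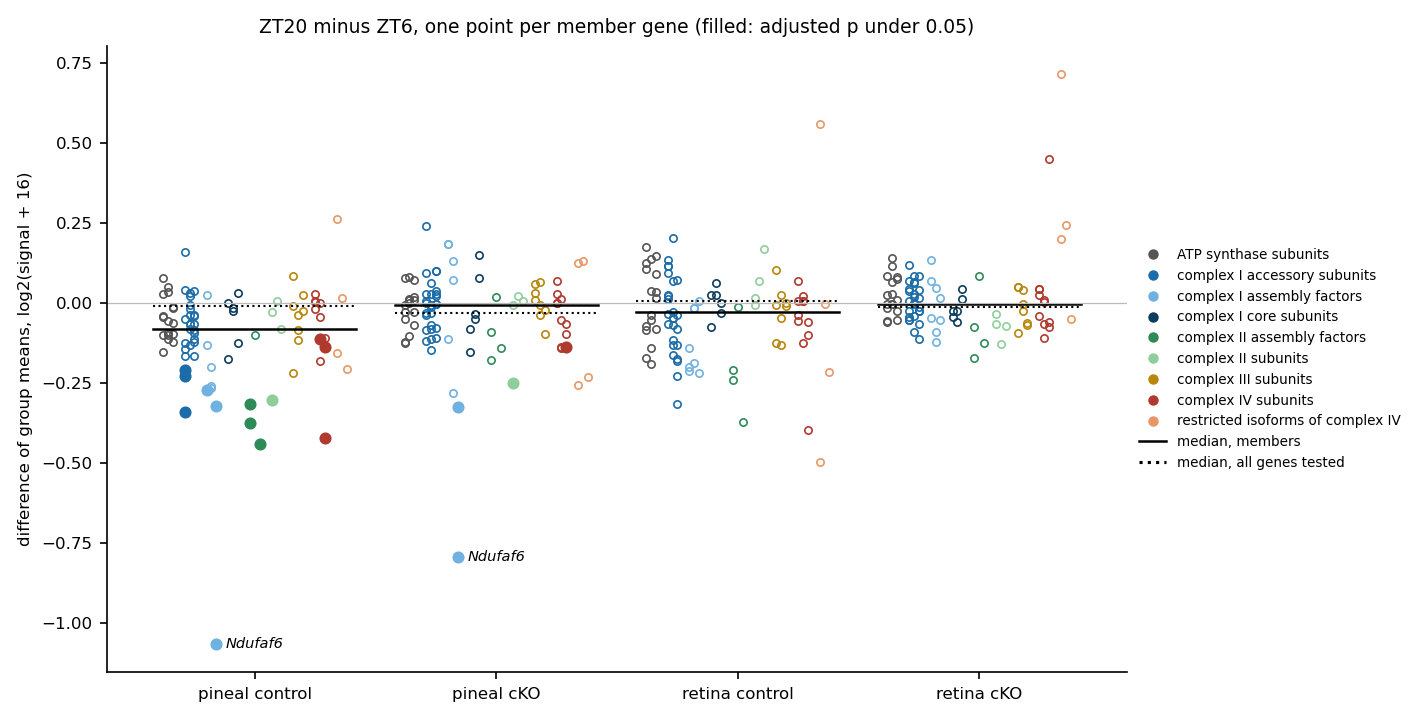
Difference between ZT20 and ZT6 for each member tested (log2 scale), in control and cKO of both tissues, coloured by role and filled where the adjusted p is under 0.05. The control pineal gland has 13 filled points, all below zero, the cKO pineal gland has 4, and the retina has none, with Ndufaf6 lowest in both pineal groups (-1.07 and -0.79).

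Lists of other mitochondrial genes are set beside the 13.5% of all genes lower and 12.2% higher at night in the control gland. Of the 28 mitochondrial ribosome genes 11 were lower and 0 higher, led by Mrps10 at -0.66 and Mrps22 at -0.53, with a list median of -0.24. In the cKO gland, where 9.73% of all genes were lower and 8.38% higher, 4 of 28 were lower, again with Mrps10 (-0.44). Of 13 regulators of mitochondrial gene expression 4 were lower in control, among them Tfb1m (-0.41), which modifies the mitochondrial ribosomal RNA, and Gabpb1 (-0.31), a partner of an ETS factor. In cKO 3 were lower, among them the mitochondrial DNA packaging factor Tfam (-0.35) and Yy1 (-0.30). Of 14 genes of cytochrome c and complex IV assembly Cox16 (-0.67) and Coa3 (-0.29) were lower in control. Coq10b, a coenzyme Q binding protein, was higher at night in both genotypes, by 0.41 and 0.49. Markers of blood vessels and fibroblasts were higher at night in control (4 of 10 tested) and rod markers lower (5 of 11 tested). The Gapdh 3' over 5' ratio was 0.39 to 0.51 by day and 0.36 to 0.37 by night in control glands, and that of Actb was higher by night in cKO glands (at least 1.34, against 1.08 to 1.29). The part of these markers and ratios in the member values was not tested.

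In the retina no member passed the threshold between day and night. In control retinas 0 of 88 passed while 1.23% of all genes did (0.672% higher, 0.562% lower), and 11 had an unadjusted p under 0.05 against 17.5% of all genes. Day and night pools of control retinas did not overlap for 12 of 88 members and 21% of all genes. In cKO retinas 0 of 88 passed and 0.34% of all genes did (0.136% higher, 0.204% lower), with 2 at an unadjusted p under 0.05 against 8.19%. The member nearest to the threshold in control was Ndufb6, with 5189 ± 427 (SD, n = 3) by day and 4161 ± 148 by night, a difference of -0.31 ± 0.09 (adjusted p = 0.0818, limma). Ndufaf6 had 378.9, 339.3 and 381.3 by day and 337.7, 287.4 and 313.8 by night in the control retina, ranges that do not overlap, and its difference of -0.22 ± 0.12 did not pass (adjusted p = 0.379). The difference of its day-night change between the tissues was 0.85 ± 0.19 in the fit of both (95% interval 0.45 to 1.24, adjusted p = 0.0112). It was the only 1 of 90 members to pass this comparison, which was added after the data had been seen and which 4.24% of all genes passed (2.04% higher, 2.2% lower).

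The tissues themselves differed for most members. In control mice, averaged over both times, 69 of 90 members were lower in the retina than in the pineal gland and 7 were higher. Among all genes 42.4% were lower, 37.3% higher and 79.7% passed in either direction (80.6% at an unadjusted p under 0.05), so the share of lower members (76.7%) was above the background and that of higher members (7.78%) below it. The median difference was -0.32 for members and -0.04 for all genes. The members lay 0.24 to 0.31 below the median of all genes under all 4 alternative scalings, beside 0.27 after quantile normalisation. The split was 81 lower and 3 higher on values as deposited, 61 and 7 with median centring, and 62 and 8 with trimmed-mean scaling.

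By role, lower calls were made for 22 of 27 accessory and 5 of 6 core subunits of complex I, 4 of 4 subunits of complex II, 6 of 8 of complex III, 9 of 11 of complex IV and 13 of 17 of ATP synthase. The accessory count includes Ndufb1, which entered this fit through its pineal signal. The complex II subunits had a median of -0.53. Sdhb had signals of 2821 to 3418 over the 6 control pineal pools and 1432 to 1864 over the 6 retinal pools, a difference of -0.97 ± 0.09 (adjusted p = 2.57e-09, limma). Sdhc, the other membrane anchor, differed by -0.64 ± 0.05 (adjusted p = 1.40e-10). No pool of either gene overlapped between tissues, which held for 54 of 90 members and 56% of all genes. Within complex IV, Cox8a had 3764 to 4318 in pineal pools and 2375 to 2582 in retinal pools (difference -0.70 ± 0.05), and Cox4i1 had 9130 to 9831 and 6934 to 7658 (difference -0.39 ± 0.03).

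The ATP synthase genes that did not pass were Atp5a1, Atp5b, Atp5c1 and Atp5mpl. Atp5a1, Atp5b and Atp5c1, its alpha, beta and gamma subunits, differed by -0.03 ± 0.03, 0.01 ± 0.03 and 0.00 ± 0.04, with 95% intervals within 0.10 of zero, while Atp5d and Atp5e, the delta and epsilon subunits of the same rotating part as gamma, were lower, with differences of -0.51 and -0.27. Atp5g1, one of 3 genes for the rotor ring, had 6330 to 6852 in pineal pools and 2610 to 3496 in retinal pools, a difference of -1.09 ± 0.09 (adjusted p = 6.90e-11, limma). The gene's second probe set, which lacks a cross-hybridisation suffix, gave 0.08. Uqcrc2 and Uqcrfs1, the Rieske protein of complex III, also did not pass, with -0.04 ± 0.05 and -0.04 ± 0.06.

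The restricted isoforms of complex IV held the extremes in both directions. Cox6b2, known as the testis form of subunit 6b, had 3331, 3749 and 3314 in the control pineal pools of ZT6 and 3466, 3400 and 3640 in those of ZT20. The retinal pools had 1011, 808.8 and 872 at ZT6 and 1108, 729.1 and 876.8 at ZT20, all below every pineal pool. The difference was -1.94 ± 0.09 (adjusted p = 8.03e-15, limma), 3.85-fold lower in the retina. Its general counterpart Cox6b1 was lower by only 0.26 ± 0.04. Cox7a1, the heart and muscle form of subunit 7a, had 599 to 961.9 in pineal pools and 211.7 to 331.3 in retinal pools (difference -1.35 ± 0.16, adjusted p = 4.38e-08). Cox4i2, the form of subunit 4 known from lung and oxygen-sensing cells, went the other way. It had 119.5 to 173.3 in pineal pools and 363 to 729.3 in retinal pools, a difference of 1.60 ± 0.16 (adjusted p = 2.70e-09), with no overlap.

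**Figure D4:**
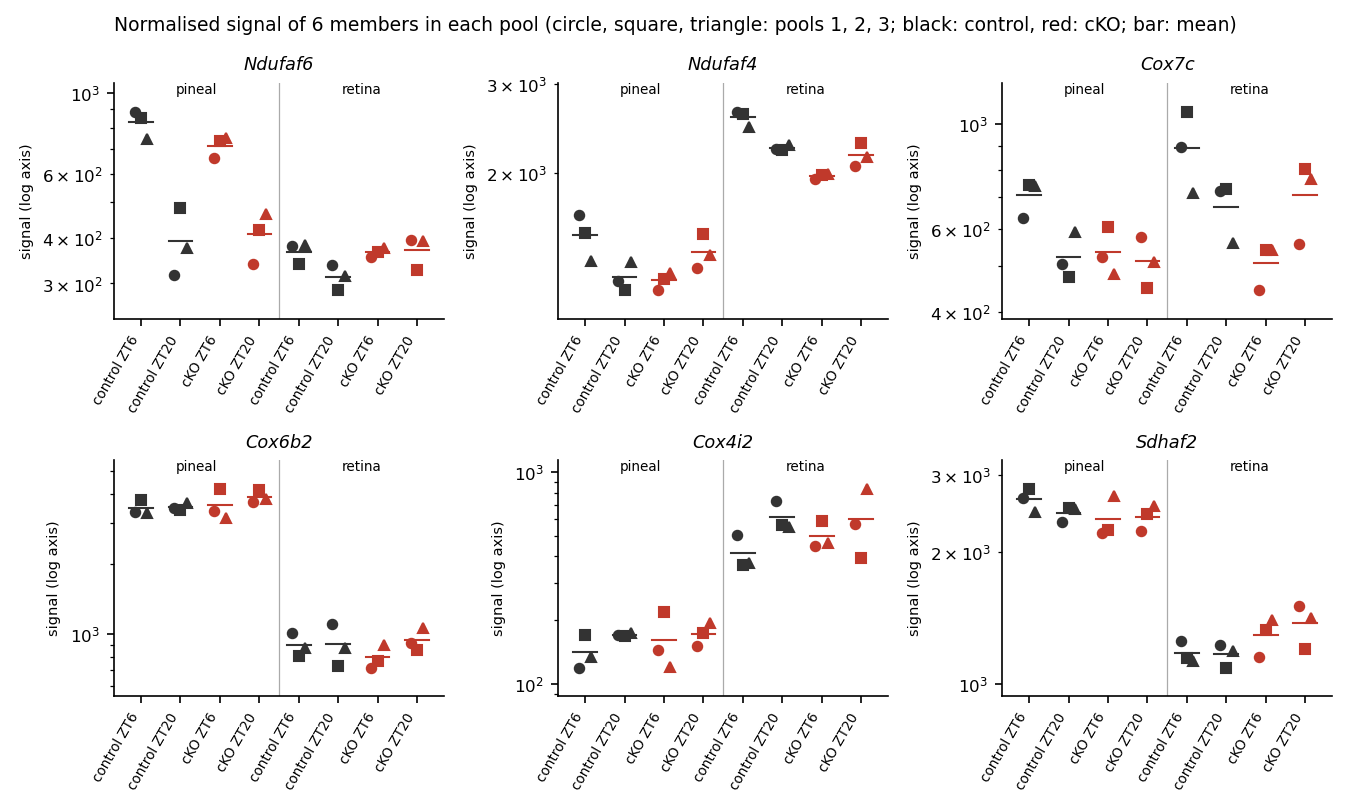
Normalised signal (log axis, arbitrary units) of Ndufaf6, Ndufaf4, Cox7c, Cox6b2, Cox4i2 and Sdhaf2 in each pool of the 8 groups, with the group mean as a bar. Ndufaf6 is high in the pineal day groups alone (661.3 to 886.9), Cox6b2 and Sdhaf2 are lower in every retinal pool than in every pineal pool, and Cox4i2 is higher.

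The assembly factors were split. Sdhaf2 had 2342 to 2792 in the control pineal pools and 1091 to 1257 in the retinal pools, a difference of -1.11 ± 0.07 (adjusted p = 8.87e-13, limma), and its second probe set gave -0.41. Sdhaf1 was higher in the retina by 0.62 ± 0.08 and Sdhaf3 by 0.37 ± 0.09, both of which also serve complex II. Ndufaf4 was higher by 0.81 ± 0.06 (adjusted p = 8.56e-12), with 1170 to 1650 in pineal pools and 2219 to 2645 in retinal pools, but its second probe set gave 0.06. Ndufaf5, which hydroxylates a complex I subunit, was higher by 0.36 ± 0.07. Ndufb1, a small accessory subunit of complex I, was dim in the retina (39.06 to 75.7) and had 165.8 to 295.3 in the pineal gland, a difference of -1.87 ± 0.15. Ndufb1 failed the filter in the retinal fit and entered the fit of both tissues through its pineal signal, so the filter favoured a lower call. Of the 39 called members with several probe sets above the array median on at least 12 arrays, all sets had the same sign in 34. The others were Atp5g1, Cox5b, Ndufb2, Ndufs4 and Sdha.

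**Figure D5:**
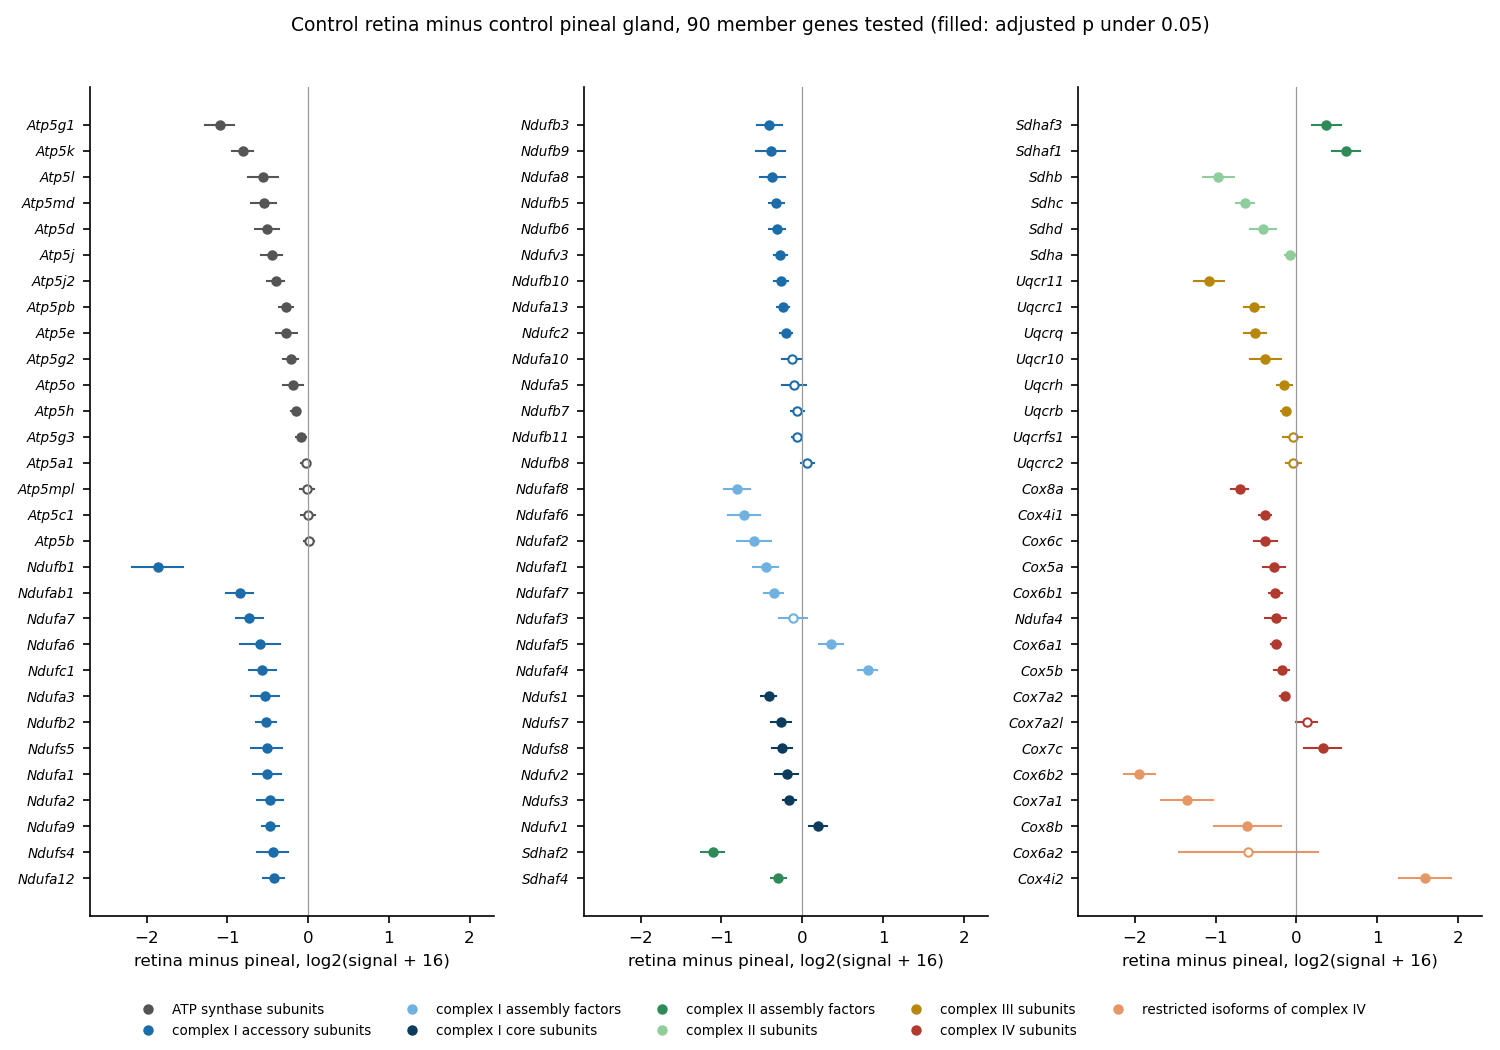
Difference between control retina and control pineal gland for the 90 members tested (log2 scale, points with 95% intervals), ordered by role and size and filled where the adjusted p is under 0.05. Most points lie left of zero, the alpha, beta and gamma subunits of ATP synthase lie on it, and Cox4i2 (1.60) and Ndufaf4 (0.81) lie farthest to the right.

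Neighbouring pathways did not all follow the chain. Counts of these lists and of the markers below stand beside 42.4% of all genes lower and 37.3% higher in the retina. Of 28 mitochondrial ribosome genes 20 were lower in the retina and 2 higher, with a median of -0.31. Of 17 genes of the TCA cycle and pyruvate dehydrogenase 8 were lower, near the share of all genes, and 3 higher. Of 17 glycolysis and lactate genes 14 were higher and 0 lower, led by the glucose transporter Slc2a3 (3.78 ± 0.14) and the phosphofructokinase Pfkp (2.57 ± 0.09). The regulators Ppargc1a, a coactivator of mitochondrial biogenesis, and Nrf1 were higher in the retina by 2.47 ± 0.14 and 1.15 ± 0.12. The tissues differ in their cells. Fibroblast and endothelial markers were lower in the retina for 9 of 10 (summed signals 27050 to 35310 in the control pineal gland and 1448 to 4337 in the retina), microglia and macrophage markers for 9 of 9, and inner retinal neuron markers were higher for 9 of 10. The Actb 3' over 5' ratio (log2) was 1.07 to 1.31 in control pineal pools and 1.23 to 1.80 in control retinal pools. Of the retinal pools only pool 1 of ZT6 lay within the pineal range, while the Gapdh ratios of the tissues overlapped. The part of these markers and ratios in the member differences was not tested.

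Promoter windows of 300 bases, from 250 before to 50 after a transcription start in RefSeq (build GRCm38.p6), were matched to 78 of the 94 members by gene identifier, in 83 windows. Letters known from the regulators of this gene family were searched on both strands, and no searched motif lies within another. The ETS letters CCGGAAG, which the GABP regulator binds, were in 26.5% of member windows and 8.86% of all 32851 windows. The palindrome bound by Nrf1 was in 7.23% and 0.971%, the Yy1 letters AAGATGGC in 12% and 2.75%, and the estrogen-related receptor letters TCAAGGTCA in 2.41% and 0.423%. The cAMP response letters TGACGTCA were in 3.61% and 1.79%. An E-box that NeuroD1 can bind, CAGATG, was in 15.7% and 17.2%, and CTAATCC, bound by Crx, was in 0 of 83 and 2.05%. Of the members tested across tissues, 19 of 22 with ETS letters were lower in the retina and 41 of 54 without them, 9 of 10 and 51 of 66 for Yy1, 4 of 6 and 56 of 70 for Nrf1, 8 of 12 and 52 of 64 for the E-box, and 1 of 3 and 59 of 73 for the cAMP response letters, and no difference between them was tested.

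Windows of 5 genes with called tissue differences are shown, in capitals where the ETS or Nrf1 letters matched on either strand. Ndufb1 (-1.87), Cox4i2 (1.60), Cox7a1 (-1.35) and Atp5g1 (-1.09) differed more than Sdhb and Ndufaf4 and are not shown. The 5 do not stand for the members: 41 of 54 without ETS letters and 4 of 6 with the Nrf1 letters were lower in the retina. Sdhaf2 (chr19:10525160-10525459, minus strand), Cox8a (chr19:7217567-7217866, minus strand) and Sdhb (chr4:140961021-140961320, plus strand) hold ETS letters and were lower in the retina. Ndufaf4 (chr4:24897833-24898132, plus strand) holds the Nrf1 letters and was higher. Cox6b2 (chr7:4753045-4753344, minus strand), with the lowest difference of all members, holds none of these letters.
Sdhaf2: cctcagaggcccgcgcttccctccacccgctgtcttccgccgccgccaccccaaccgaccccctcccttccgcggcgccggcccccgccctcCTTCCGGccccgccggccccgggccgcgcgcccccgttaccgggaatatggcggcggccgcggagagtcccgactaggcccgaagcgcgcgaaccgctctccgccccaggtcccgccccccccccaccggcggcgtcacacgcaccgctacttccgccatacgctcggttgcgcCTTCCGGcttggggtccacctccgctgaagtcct
Cox8a: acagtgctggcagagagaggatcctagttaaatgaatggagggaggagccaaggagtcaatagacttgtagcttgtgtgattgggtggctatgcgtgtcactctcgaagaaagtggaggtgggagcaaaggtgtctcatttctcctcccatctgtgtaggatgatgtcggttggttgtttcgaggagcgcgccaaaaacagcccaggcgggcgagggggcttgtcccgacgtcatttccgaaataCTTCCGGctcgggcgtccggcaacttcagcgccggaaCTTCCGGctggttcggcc
Sdhb: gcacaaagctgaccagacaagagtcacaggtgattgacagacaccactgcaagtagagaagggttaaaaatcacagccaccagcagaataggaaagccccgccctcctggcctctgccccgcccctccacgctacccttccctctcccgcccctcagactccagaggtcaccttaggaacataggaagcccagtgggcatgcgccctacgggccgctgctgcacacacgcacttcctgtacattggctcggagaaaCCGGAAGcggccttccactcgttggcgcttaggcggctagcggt
Ndufaf4: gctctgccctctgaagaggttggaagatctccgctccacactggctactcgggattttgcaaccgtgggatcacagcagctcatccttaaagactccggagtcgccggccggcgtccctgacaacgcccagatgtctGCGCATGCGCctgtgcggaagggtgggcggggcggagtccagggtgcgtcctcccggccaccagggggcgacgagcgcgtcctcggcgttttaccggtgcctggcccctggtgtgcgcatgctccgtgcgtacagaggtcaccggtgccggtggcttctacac
Cox6b2: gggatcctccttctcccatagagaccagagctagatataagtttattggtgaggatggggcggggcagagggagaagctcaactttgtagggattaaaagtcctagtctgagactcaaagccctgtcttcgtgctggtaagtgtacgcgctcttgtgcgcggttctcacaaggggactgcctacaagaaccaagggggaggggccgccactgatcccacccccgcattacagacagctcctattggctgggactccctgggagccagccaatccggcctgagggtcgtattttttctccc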

How the data were processed

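Expression was measured on Affymetrix Mouse 430 2.0 arrays in 24 pools, per the labels. The deposited values are linear signal intensities, 1 for each of 45101 probe sets and array. The submitters' processing notes name GCOS; version and scaling are not given in the sources used here. RNA was isolated with an RNeasy Micro kit and amplified with NuGEN Ovation V2 kits, per the labels' protocols.

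Intensities were quantile normalised over the 24 arrays without the 64 control probe sets, and tested as log2(signal + 16), which understates changes of dim genes. Symbols came from the platform annotation, where 34945 probe sets have 1 symbol, 932 several and 9160 none. The probe set with the highest mean represented a gene. Fits used limma 3.58.1 in R 4.3.3 (lmFit, eBayes with trend), 1 mean per group, over the 12 arrays of a tissue or all 24. All tests were two-sided, with Benjamini-Hochberg adjustment across the genes of a fit and a threshold of 0.05, and the scripts were tested on simulated data. For any one gene, exact permutation of 6 pools allows no p below 0.1.

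There were 14 planned comparisons and 1 added. Named members are, per comparison, the called ones with the largest rises and falls (5 each way), or the 2 of smallest p where none passed, and subunits listed by name. In the day-night comparison of control glands Ndufaf3, Ndufaf4, Ndufb6, Ndufb9, Cox6c and Sdhaf4 were named after their values were seen. Alternatives varied the scaling, pseudocount, filter, variance trend, probe-set choice, replicate block and the pools included. Members and lists were chosen with earlier results of these data known. Arrays of a group correlated at r = 0.987 to 0.994, and no pair of arrays shared over 0.494% of its values. Same-numbered pools of control and cKO pineal gland at ZT6 deviated together (r = 0.21, 0.36 and 0.35), and no other pair of groups did so for all 3 numbers. The number of arrays limits the precision.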

Additional observations from a re-analysis of the deposited data

Results flagged for a closer look

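The day-night change of Ndufaf6 in control mice differed between the tissues by 0.85 on the log2 scale (SE 0.19, adjusted p = 0.0112 by limma in the fit of both tissues). It is listed because a test of the difference itself passed. The pineal gland had -1.07. The retinal pools had 378.9, 339.3 and 381.3 by day and 337.7, 287.4 and 313.8 by night. They did not overlap, as for 21% of all genes, and their difference of -0.22 did not pass (adjusted p = 0.379). The value lay between 0.71 and 1.00 over 39 alternatives, and the call was lost in 1 of them, on values as deposited (adjusted p = 0.257). The gene has only 1 probe set, so no second set could be compared. The comparison was added after the data had been seen.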

How the results depend on the processing

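At ZT6 in the pineal gland the count of 0 became 31 with median centring, 1 with suffix-free probe sets and 2 with the mean of all sets. Averaged over times it became 74 with median centring and 1 with the replicate block. The pineal day-night count of 13 in control became 1 as deposited and 3 with median centring. That of 4 in cKO became 2 as deposited, with median centring, with trimmed-mean scaling, without the filter on dim genes and without the pools with residual Neurod1 (1 cKO pool left, assumed to vary like the rest), and 1 without the variance trend. The retinal count of 3 at ZT6 became 0 as deposited, 10 with median centring, 11 with trimmed-mean scaling and 5 with suffix-free sets. That of 1 at ZT20 became 2 with median centring or suffix-free sets and 0 when every array had to lie above the median, which left Cox8b out. The averaged count of 4 became 24 with median centring, 15 with trimmed-mean scaling and 1 without the pools with muscle transcripts, an alternative chosen after seeing the data. The day-night count of 0 in control retina became 1 with trimmed-mean scaling. The tissue difference of the cKO effect, 0, became 3 as deposited, 66 with median centring, 8 with trimmed-mean scaling, 1 with pseudocount 64, no trend, the mean of all sets or without the pineal pools high in Gnat1, and 2 with suffix-free sets or without the residual pools. The added comparison became 0 as deposited. The causes were not tested.

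Leaving out 1 pool gave 5 to 13 members for day and night in the control pineal gland, 2 to 4 in cKO, 2 to 8 in the retina at ZT6, 0 to 1 at ZT20, 2 to 9 averaged, 0 to 2 for the tissue difference of the cKO effect, 75 to 78 between control tissues and 1 to 1 for the added comparison. It gave 0 to 0 in each of the other 7 comparisons.

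Signs turned for Cox5b by night in the cKO pineal gland (0.30, suffix-free set) and, between tissues, for Atp5g1 (0.081) and Cox5b (0.0447) with suffix-free sets, Sdha (0.23) and Atp5g2 (0.0376) with the mean of all sets, and Ndufv1 (-0.0321) as deposited. Of 12 pairs of groups 1 had pools that deviated together by number. The replicate block (pool number within tissue as a term) changed no count by over 1.5 times other than the averaged pineal one, which became 1. Pseudocounts of 1 and 64, the 2 filters and the trend were varied too.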
